A study of Mus musculus with 24 samples.

Results

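The 4 Id genes, Id1, Id2, Id3 and Id4, encode the inhibitors of differentiation, and each was followed here across 8 groups of mouse muscle cells. For each gene the probe set whose platform annotation lists that symbol alone was taken from the deposited expression table, and each of the 4 had exactly 1 such probe set. They are 4 of the 19938 genes that could be tested. Id proteins are helix-loop-helix proteins without a DNA-binding basic region. They bind the ubiquitous E proteins and so keep them from pairing with MyoD, myogenin and the other basic helix-loop-helix (bHLH) factors of muscle. Bone morphogenetic proteins (BMPs) act through receptor kinases that phosphorylate Smad1, Smad5 and Smad9, and Id genes are among the best known direct targets of these Smads in myoblasts, where high Id levels accompany a block of differentiation.

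RNA was measured on Affymetrix whole-transcript arrays, 1 array per sample and 3 per group. The cells were 1 MuSK-null and 1 wild-type muscle line carrying the H-2Kb-tsA58 transgene, which encodes a temperature-sensitive large T antigen, so genotype and line cannot be told apart. MuSK, the muscle-specific receptor tyrosine kinase, organises the neuromuscular junction, and the design asks how its loss alters the reply to BMP4 at both stages of culture. The groups were BMP4-treated and untreated MuSK-null myotubes, BMP4-treated and untreated wild-type myotubes, BMP4-treated and untreated MuSK-null myoblasts, and BMP4-treated and untreated wild-type myoblasts. Treatment was 25 ng/ml BMP4 for 8 h. Myotubes had been differentiated for 3 days at 37 °C in 5% serum, whereas myoblasts were grown at 33 °C in 20% serum, so the stage contrast also spans temperature and serum. Treated myoblasts spent 4 h without serum before BMP4, a step the labels do not record for untreated myoblasts. Serum and BMP4 can therefore not be told apart in the myoblast responses. The labels call the samples of a group replicates without naming separate cultures, so p-values rest on a spread between samples that may be technical.

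Per RefSeq on build GRCm38.p6, Id1 lies at chr2:152736251-152737410, Id2 at chr12:25093799-25096092, Id3 at chr4:136143822-136145392 and Id4 at chr13:48261116-48266028. The promoters are shown because BMP Smads act on Id genes through DNA upstream of the start. The RefSeq promoter sequences used here held 3 of the 4 genes, Id2, Id3 and Id4. Each line gives the 250 bases before the annotated start, 5′ to 3′ on the gene's strand. These are chr12:25096093-25096342 on the minus strand for Id2, chr4:136143572-136143821 on the plus strand for Id3, and chr13:48260866-48261115 on the plus strand for Id4. Capitals mark GGCGCC, a GC-rich Smad motif, and CCAAT, the motif of the factor NF-Y, which reads ATTGG where it lies on the opposite strand.
Id2: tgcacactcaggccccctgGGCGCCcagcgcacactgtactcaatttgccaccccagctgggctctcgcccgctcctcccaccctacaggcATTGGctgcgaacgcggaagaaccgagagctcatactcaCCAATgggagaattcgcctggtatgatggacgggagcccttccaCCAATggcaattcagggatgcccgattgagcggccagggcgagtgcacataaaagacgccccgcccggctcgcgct
Id3: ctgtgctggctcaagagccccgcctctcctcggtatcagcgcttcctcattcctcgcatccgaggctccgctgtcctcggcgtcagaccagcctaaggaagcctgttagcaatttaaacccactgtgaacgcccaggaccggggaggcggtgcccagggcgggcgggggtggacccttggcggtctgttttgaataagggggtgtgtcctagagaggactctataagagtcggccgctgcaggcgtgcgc
Id4: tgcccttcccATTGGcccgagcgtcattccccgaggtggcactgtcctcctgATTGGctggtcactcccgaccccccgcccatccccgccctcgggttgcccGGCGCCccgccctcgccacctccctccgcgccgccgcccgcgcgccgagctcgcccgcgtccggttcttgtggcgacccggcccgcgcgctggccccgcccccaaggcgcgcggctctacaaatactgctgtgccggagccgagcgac

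GGCGCC was found 231 bases before the start of Id2 and 148 bases before that of Id4. These letters are not in the 250 bases of Id3. DNA farther upstream was not searched for any of the genes, so a missing match says nothing about sites there. Of 32841 promoter windows of the same length, 9.59% hold the motif on either strand. CCAAT had 3 matches in Id2 and 2 in Id4, with none in Id3, and 33.9% of the windows hold it. The short Smad-binding element GTCT, searched on both strands, matched 1 time in Id2 and 2 times in Id3, but 82.9% of all windows hold it. The E box CANNTG, the motif of bHLH factors, had 1 match in Id2 and was in 66.2% of all windows. None of these motifs overlapped another. The windows of Id2 and Id3 were each 62.8% GC with 18 CG dinucleotides, and that of Id4 was 75.6% GC with 35, against medians of 52.4% and 6 over all windows.

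The deposited values are log2 signals, so 1 unit is a doubling, and a level is compared only within a probe set. Musk had 1 probe set, with signals of 11.17 to 11.24 in untreated MuSK-null myotubes, against 12.69 to 12.76 in wild type, and of 10.69 to 10.94 in untreated MuSK-null myoblasts, against 11.5 to 11.63 in wild type. Musk was thus lower on every array of the null line by a part of its signal, and the sources used here do not say whether its probes lie in the deleted exons. Summed over 8 genes of differentiated muscle, the log2 level was 16.26 to 16.28 in untreated MuSK-null myotubes and 16.51 to 16.57 in wild-type ones. It was 12.38 to 12.49 in untreated MuSK-null myoblasts and 14.92 to 15.05 in wild-type ones. The summed level of 7 fibroblast markers was 14.36 to 14.42 in untreated MuSK-null myotubes, against 13.01 to 13.06 in wild type, and 14.26 to 14.46 in untreated MuSK-null myoblasts, against 13.21 to 13.31 in wild type. Pax7, a marker of muscle progenitors, had group means of 7.24 to 7.35, just below the array medians of 7.38 to 7.5. The summed levels of 4 endothelial and of 4 macrophage markers lay between 8.25 and 8.85 in all groups. In 4 myoblast arrays, 1 per myoblast group, deviations from the group mean correlated at 0.42 to 0.54 over the genes tested. The Id genes deviated by -0.11 to 0.17 log2 units on these 4 arrays.

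The 8 group means spanned 3.3 log2 units for Id2, 3.16 for Id3, 2.95 for Id1 and 0.84 for Id4. The median within-group SD over all genes was 0.11, so the groups differed far more than the arrays within them for Id1, Id2 and Id3, and much less so for Id4.

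In myotubes, Id1 read 11.16, 11.32 and 11.4 in BMP4-treated MuSK-null cells, against 8.95, 9.18 and 9.19 in untreated ones. In wild-type myotubes it read 11.09, 11.14 and 11.21 with BMP4 and 9.03, 9.06 and 9.2 without. The genotypes overlapped in both states, and BMP4 separated them from their controls by about the same distance. In myoblasts, Id1 read 11.59, 11.59 and 11.66 in BMP4-treated MuSK-null cells, against 10.56, 10.59 and 10.71 in untreated ones. In wild-type myoblasts it read 11.06, 11.1 and 11.15 with BMP4, against 8.62, 8.66 and 8.71 without. Untreated MuSK-null myoblasts thus stood above every other untreated group. In ascending order of means, untreated wild-type myoblasts came before untreated wild-type and MuSK-null myotubes, whose ranges overlapped, and then untreated MuSK-null myoblasts. Of the treated groups, wild-type myoblasts, wild-type myotubes and MuSK-null myotubes each overlapped the next, and MuSK-null myoblasts lay above them.

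Id2 read 11.78, 11.89 and 11.9 in BMP4-treated MuSK-null myotubes, against 9.07, 9.17 and 9.44 in untreated ones. In wild-type myotubes it read 12.44, 12.56 and 12.58 with BMP4, against 11.6, 11.61 and 11.72 without. Untreated MuSK-null myotubes held the lowest Id2 signal of the 8 groups, and treated wild-type myotubes the highest mean. In myoblasts, Id2 read 12.3, 12.45 and 12.47 in BMP4-treated MuSK-null cells, against 11.64, 11.71 and 11.75 in untreated ones. In wild-type myoblasts it read 12.0, 12.05 and 12.14 with BMP4 and 10.4, 10.5 and 10.54 without. Between neighbours in the order of means, ranges overlapped at 2 of 7 steps, between untreated wild-type myotubes and untreated MuSK-null myoblasts and between the 2 groups at the top.

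Id3 read 11.32, 11.39 and 11.57 in BMP4-treated MuSK-null myotubes, against 8.48, 8.61 and 8.62 in untreated ones. In wild-type myotubes it read 10.92, 10.94 and 11.06 with BMP4, against 8.84, 9.19 and 9.24 without. As for Id2, the untreated MuSK-null myotubes were the lowest group and did not overlap wild type. In myoblasts, Id3 read 11.65, 11.69 and 11.83 in BMP4-treated MuSK-null cells, against 10.96, 10.97 and 11.02 in untreated ones. In wild-type myoblasts it read 11.58, 11.67 and 11.75 with BMP4 and 9.2, 9.37 and 9.4 without. Untreated MuSK-null myoblasts were therefore level with BMP4-treated wild-type myotubes, and their ranges overlapped. Ranges also overlapped between untreated wild-type myotubes and myoblasts and between the 2 treated myoblast groups.

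Id4 moved little, and its signal was low. Its untreated group means of 7.04 to 7.28 lay below the array medians of 7.38 to 7.5. Whether so low a signal compresses its changes was not tested. Id4 read 6.9, 7.12 and 7.36 in BMP4-treated MuSK-null myotubes, against 7.03, 7.05 and 7.06 in untreated ones, which lay inside the treated range. In wild-type myotubes it read 7.67, 7.79 and 7.82 with BMP4, against 7.2, 7.32 and 7.32 without. In MuSK-null myoblasts the values were 7.55, 7.64 and 7.85 with BMP4 and 6.97, 7.12 and 7.15 without, and in wild-type myoblasts 7.77, 7.85 and 8.02 with BMP4 and 7.05, 7.05 and 7.3 without. Of its 7 steps between neighbouring groups 6 overlapped. The exception was the step up to the 3 highest groups, which were BMP4-treated MuSK-null myoblasts, wild-type myotubes and wild-type myoblasts.

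**Figure D1:**
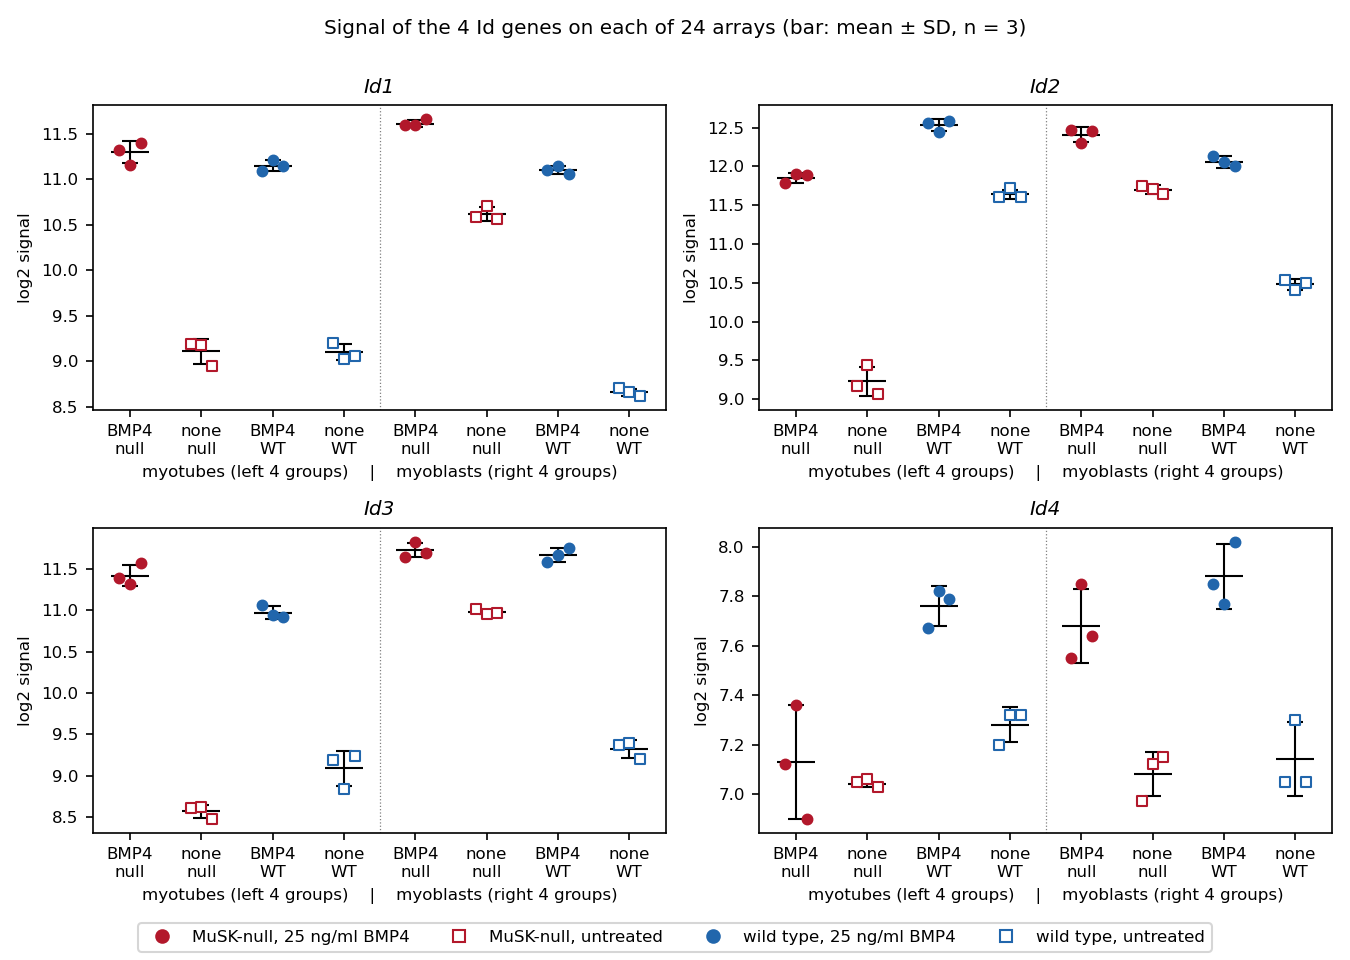
Log2 signal of Id1, Id2, Id3 and Id4 on each of the 24 arrays, by group (filled circles, 25 ng/ml BMP4; open squares, untreated; red, MuSK-null; blue, wild type; long bar, mean, with SD, n = 3). Treated groups of Id1, Id2 and Id3 lie closer together than untreated groups, which spread over 1.96, 2.47 and 2.42 log2 units; each panel has its own scale.

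The levels of Id1, Id2 and Id3 lay closer together across the 4 kinds of cells with BMP4 than without it, although some treated groups still differed by the test. The 4 treated means of Id1 lay between 11.1 and 11.61, a range of 0.51, against 8.66 to 10.62 and a range of 1.96 in untreated cells. For Id2 the treated range was 0.67 and the untreated range 2.47, and for Id3 they were 0.75 and 2.42. The ratio of treated to untreated range was 0.261, 0.272 and 0.311 for Id1, Id2 and Id3. Of the 3135 genes whose untreated means spanned at least 1 log2 unit, 0.287%, 0.351% and 0.606% had a ratio at or below these, and the median ratio was 0.966. The highest single values of the 3 genes, 11.66, 12.58 and 11.83, lay below the highest value in the table, 15.03, and whether these probe sets approach saturation was not tested. Id4 went the other way, with a treated range of 0.76 and an untreated range of 0.24.

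All 4 Id genes rose with BMP4 in wild-type cells of both stages and in MuSK-null myoblasts, and 3 of the 4 rose in MuSK-null myotubes. In MuSK-null myotubes, where 5.36% of all genes were called higher and 5.9% lower, Id3 rose 7.24-fold (log2 change 2.86, SE 0.09, limma adjusted p = 8.97e-16), Id2 6.18-fold (2.63, SE 0.08, adjusted p = 5.04e-16) and Id1 4.55-fold (2.19, SE 0.07, adjusted p = 2.1e-15). They ranked 2, 4 and 6 among the rises of 19938 genes. Id4 changed by 0.08 (95% interval -0.13 to 0.29, adjusted p = 0.75). In wild-type myotubes, with 4.4% of genes called higher and 4.37% lower, Id1 rose 4.14-fold (2.05, SE 0.07) and Id3 3.68-fold (1.88, SE 0.09), ranks 4 and 5, while Id2 rose 1.84-fold (0.88, SE 0.08), rank 83, and Id4 1.4-fold (0.48, SE 0.1, adjusted p = 0.00222).

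In MuSK-null myoblasts, with 3.89% of genes called higher and 4.52% lower, the rises were smaller, at 1.99-fold for Id1 (0.99, SE 0.07), 1.67-fold for Id3 (0.74, SE 0.09), 1.64-fold for Id2 (0.71, SE 0.08) and 1.52-fold for Id4 (0.6, SE 0.1). The largest adjusted p of these 4 was 0.000174, for Id4, by limma. In wild-type myoblasts, with 5.21% called higher and 5.76% lower, Id1 rose 5.42-fold (2.44, SE 0.07, rank 4), Id3 5.08-fold (2.34, SE 0.09, rank 7), Id2 2.99-fold (1.58, SE 0.08, rank 22) and Id4 1.68-fold (0.75, SE 0.1). Each treated group lay above its control without overlap except for Id4 in MuSK-null myotubes. Summed fibroblast and muscle markers moved little between treated and untreated cells of a kind. The muscle sum was nonetheless lower with BMP4 in every kind of cell, with ranges that did not overlap. It was 12.19 to 12.28 with BMP4 against 12.38 to 12.49 without in MuSK-null myoblasts. In MuSK-null myotubes the muscle sum was 16.22 to 16.25 against 16.26 to 16.28. The fibroblast sum was lower with BMP4 in MuSK-null myotubes, at 14.22 to 14.25 against 14.36 to 14.42. In wild-type myotubes it was higher, at 13.08 to 13.14 against 13.01 to 13.06, and in myoblasts of each line its ranges overlapped. With BMP4, 3 of 8 muscle markers were called lower and 0 higher in each myoblast line. In MuSK-null myotubes 3 of 7 fibroblast markers were called lower and 1 higher, where 5.9% of all genes were called lower and 5.36% higher.

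**Figure D2:**
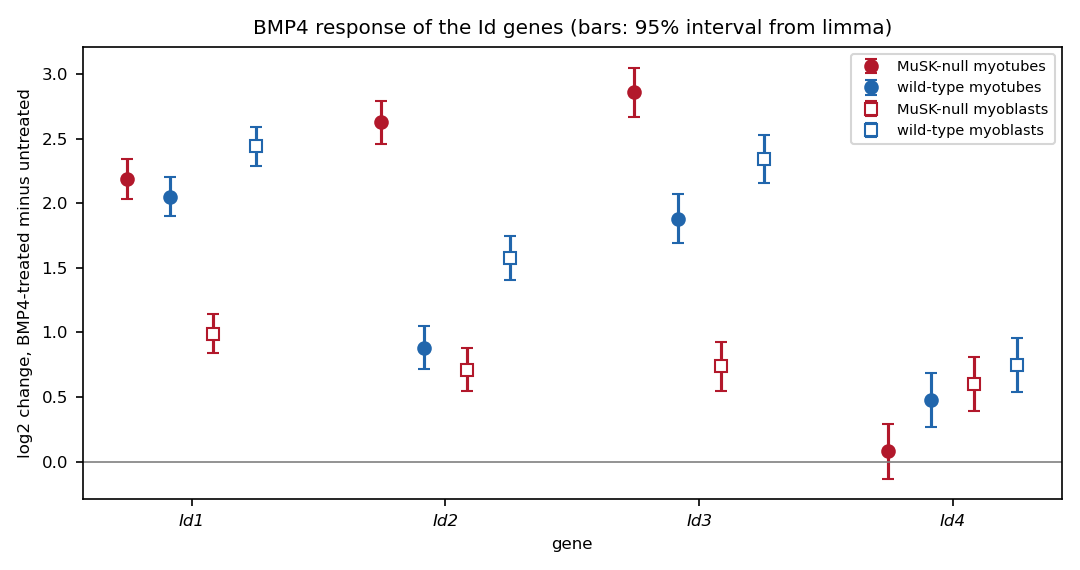
BMP4 response of each Id gene as a log2 change, BMP4-treated minus untreated (filled circles, myotubes; open squares, myoblasts; red, MuSK-null; blue, wild type; bars, 95% interval from limma, 3 arrays per group). Responses of Id1, Id2 and Id3 were smallest in MuSK-null myoblasts, at 0.99, 0.71 and 0.74, and Id4 in MuSK-null myotubes is the one interval that crosses 0.

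Without BMP4, 3 of the 4 Id genes stood higher in MuSK-null than in wild-type myoblasts, and none was called higher in MuSK-null myotubes. In untreated MuSK-null myoblasts Id1 was 3.89-fold higher (log2 difference 1.96, SE 0.07, limma adjusted p = 6.9e-16), Id3 3.17-fold (1.66, SE 0.09, adjusted p = 7.35e-13) and Id2 2.32-fold (1.21, SE 0.08, adjusted p = 2.27e-11). These 3 calls stand against 15.3% of all genes called higher and 16% called lower in the null line. Id4 differed by -0.06 (95% interval -0.26 to 0.15). In untreated myotubes, Id2 was 5.34-fold lower in MuSK-null cells (-2.42, SE 0.08, adjusted p = 8.85e-17) and Id3 1.44-fold lower (-0.52, SE 0.09, adjusted p = 6.19e-05), with 18% of all genes called lower and 19.4% higher. Id1 differed there by 0.01 (95% interval -0.14 to 0.17). Id4 differed by -0.24 (95% interval -0.44 to -0.03, adjusted p = 0.0711), a value that crossed the threshold in 6 of 8 other fits.

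With BMP4 these differences were mostly smaller. In BMP4-treated MuSK-null myoblasts Id1 was higher by 0.51 (SE 0.07, limma adjusted p = 6.98e-06) and Id2 by 0.35 (SE 0.08, adjusted p = 0.00166), where 14.1% of genes were called higher. Id3 differed by 0.06 (95% interval -0.13 to 0.25) and Id4 by -0.2 (95% interval -0.41 to 0.01). In BMP4-treated myotubes Id2 was lower in MuSK-null cells (difference -0.67, SE 0.08, adjusted p = 3.82e-07) and Id4 likewise (difference -0.63, SE 0.1, adjusted p = 1.94e-05), with 18.8% of genes called lower. Id3 was higher there by 0.45 (SE 0.09, adjusted p = 0.000333), with 17.5% called higher, so its genotype difference had the opposite sign to that in untreated myotubes. Id1 differed by 0.15 (95% interval 0 to 0.3, adjusted p = 0.126), and by 0.22 (adjusted p = 0.0344) without replicate 2 of the treated MuSK-null myotubes. In untreated MuSK-null myoblasts, where 15.3% of all genes were called higher and 16% lower, all 8 muscle markers were lower (median log2 difference -2.51) and 5 of 7 fibroblast markers were higher and 1 lower (median 0.79). Of 5 myoblast markers 3 were lower and 1 higher (median -1.24), of 4 smooth muscle markers 3 were lower (median -0.64), and of the 4 endothelial and 4 macrophage markers 0 were called. Their part in the Id differences was not tested, and in bulk RNA fewer cells of a type and less RNA per cell cannot be told apart. In untreated MuSK-null myotubes, where 19.4% of all genes were called higher and 18% lower, 6 of 7 fibroblast markers were higher and 1 lower (median 1.13), 7 of 8 muscle markers were lower (median -0.32), and 2 of 5 myoblast markers and 2 of 4 smooth muscle markers were lower (medians -0.05 and -0.2), with 1 myoblast marker higher. Of the 4 endothelial markers 0 were called there, and of the 4 macrophage markers 1 was lower.

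**Figure D3:**
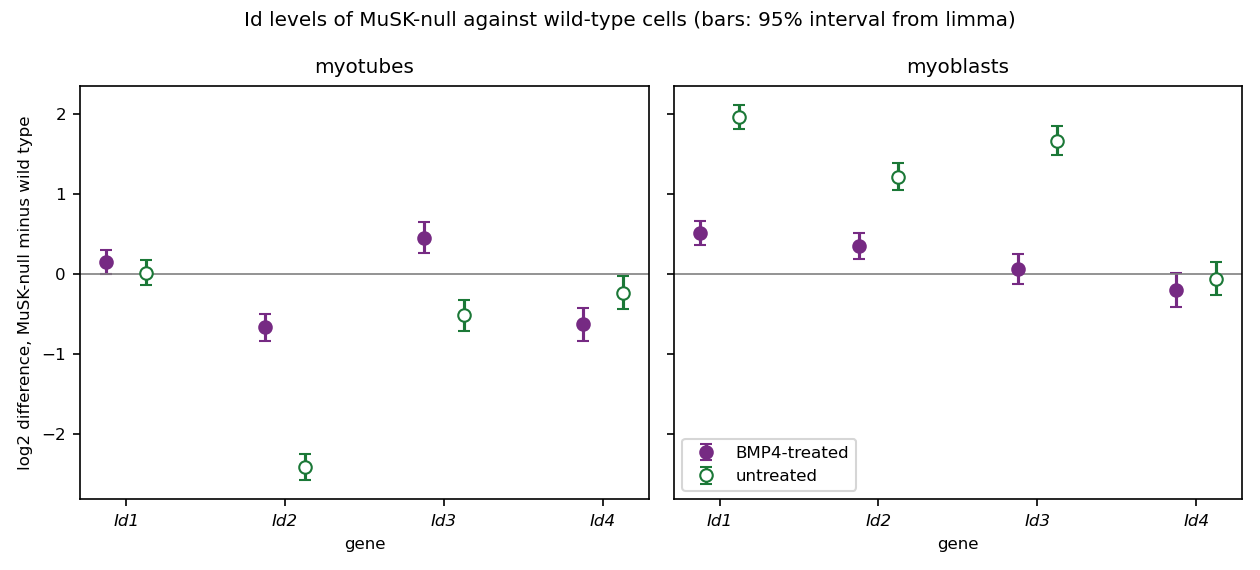
Log2 difference of each Id gene, MuSK-null minus wild type, in myotubes (left) and myoblasts (right), with BMP4 (filled) and without (open); bars are 95% intervals from limma, 3 arrays per group. Untreated myoblasts show differences of 1.96, 1.21 and 1.66 for Id1, Id2 and Id3, and untreated myotubes one of -2.42 for Id2.

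Along the course of differentiation the lines parted. In untreated MuSK-null cells, myotubes had less Id2 than myoblasts by 5.53-fold (log2 difference -2.47, SE 0.08, limma adjusted p = 2.35e-17), less Id3 by 5.34-fold (-2.42, SE 0.09, adjusted p = 4.02e-16) and less Id1 by 2.85-fold (-1.51, SE 0.07, adjusted p = 4.61e-14). With 23.4% of genes called lower in these myotubes, Id2 and Id3 ranked 15 and 19 among the falls. In untreated wild-type cells, myotubes had more Id2 than myoblasts by 2.24-fold (1.16, SE 0.08, adjusted p = 2.27e-11) and more Id1 by 1.35-fold (0.44, SE 0.07, adjusted p = 2.88e-05), with 20.3% of genes called higher. Id3 was lower in wild-type myotubes (-0.23, SE 0.09, adjusted p = 0.0446), with 24.7% of genes called lower. Its arrays overlapped between the stages and the call was lost without replicate 1 (-0.21, adjusted p = 0.117) or 2 (-0.19, adjusted p = 0.151) of the untreated myoblasts or replicate 2 of the untreated myotubes (-0.11, adjusted p = 0.365). Under 7 of 9 other fits it was not called. Id4 differed by 0.14 (95% interval -0.07 to 0.35) in wild-type and by -0.04 (95% interval -0.24 to 0.17) in MuSK-null cells. With BMP4, all 4 Id genes were lower in MuSK-null myotubes than in MuSK-null myoblasts, with log2 differences of -0.56 to -0.3, where 24.7% of genes were called lower. The Id3 difference among them (-0.3, adjusted p = 0.00941) was not called without replicate 2 of the myotubes (-0.25, adjusted p = 0.0575) or of the myoblasts (-0.25, adjusted p = 0.0543). In wild-type cells with BMP4, Id2 was higher in myotubes (0.46, SE 0.08, with 20.8% called higher) and Id3 lower (-0.69, SE 0.09, with 23.3% called lower).

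The stage difference itself differed between the lines. Between untreated MuSK-null and wild-type cells it differed by -3.63 log2 units for Id2 (SE 0.11, limma adjusted p = 1.5e-16), -2.19 for Id3 (SE 0.13) and -1.95 for Id1 (SE 0.1), the last 2 with adjusted p-values of 5.69e-12 and 1.16e-12. In this contrast 14.1% of genes were called lower, and Id2 ranked 11 from the bottom, Id3 66 and Id1 87. Id4 differed by -0.18 (95% interval -0.47 to 0.12).

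Responses to BMP4 were then compared with each other. In myoblasts the MuSK-null response was smaller than the wild-type response by 1.6 log2 units for Id3 (difference -1.6, SE 0.13), 1.45 for Id1 (-1.45, SE 0.1) and 0.87 for Id2 (-0.87, SE 0.11), with limma adjusted p-values of 5.08e-08, 1.06e-08 and 4.48e-05. With 1.22% of genes called lower and 1.17% higher, Id3 and Id1 ranked 6 and 8 from the bottom. In myotubes the MuSK-null response was larger by 1.75 for Id2 (SE 0.11, limma adjusted p = 3.46e-09) and by 0.97 for Id3 (SE 0.13). The adjusted p of Id3 was 4.67e-05, and the ranks were 4 and 34, with 1.5% of genes called higher and 1.71% lower. For Id1 the difference was 0.14 (95% interval -0.08 to 0.35, adjusted p = 0.623). For Id4 it was -0.4 (95% interval -0.69 to -0.1, adjusted p = 0.162), and it passed the threshold without replicate 2 of the treated MuSK-null myotubes (-0.51, adjusted p = 0.0447).

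Between stages, the MuSK-null response was larger in myotubes than in myoblasts by 2.12 for Id3 (SE 0.13), 1.92 for Id2 (SE 0.11) and 1.2 for Id1 (SE 0.1), where 3.24% of genes were called higher and these ranked 2, 8 and 38. The Id4 response was smaller in myotubes (-0.52, SE 0.14, limma adjusted p = 0.0275, with 2.92% called lower), a call lost in 6 of 12 fits that left out 1 array, with values of -0.64 to -0.41 over the 12. Those 6 left out replicate 1 or 3 of the treated myotubes, 1 or 2 of the untreated myotubes, 2 of the treated myoblasts or 1 of the untreated myoblasts. In wild-type cells the myotube response was smaller than the myoblast response for Id2 (-0.7, SE 0.11, adjusted p = 0.000565), with 1.5% of genes called lower. The differences of Id1 (-0.39, adjusted p = 0.0373) and Id3 (-0.46, adjusted p = 0.0483) went the same way. With 1 wild-type array left out, Id1 ran from -0.42 to -0.34 and was called in 3 of 12 fits, those without replicate 2 of the treated or untreated myotubes or replicate 3 of the treated myoblasts. Id3 ran from -0.59 to -0.39 and was called in 4 of 12, those without replicate 1 of the treated myotubes, 2 of the untreated myotubes, 1 of the treated myoblasts or 2 of the untreated myoblasts.

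The three-way difference is the genotype difference of responses in myotubes minus that in myoblasts. Id2 and Id3 ranked 1 and 2 in it among the 19938 genes, at 2.61 (SE 0.16, limma adjusted p = 2.18e-09) and 2.58 (SE 0.18, adjusted p = 1.61e-08). Id1 ranked 11, at 1.59 (SE 0.15, adjusted p = 8.85e-07), and 1.18% of genes were called higher. Id4 had a value of -0.25 (95% interval -0.67 to 0.16). These contrasts share their untreated groups with the comparisons above. The small responses of Id1, Id2 and Id3 in MuSK-null myoblasts stood beside high untreated levels, and the large responses of Id2 and Id3 in MuSK-null myotubes beside low ones.

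**Figure D4:**
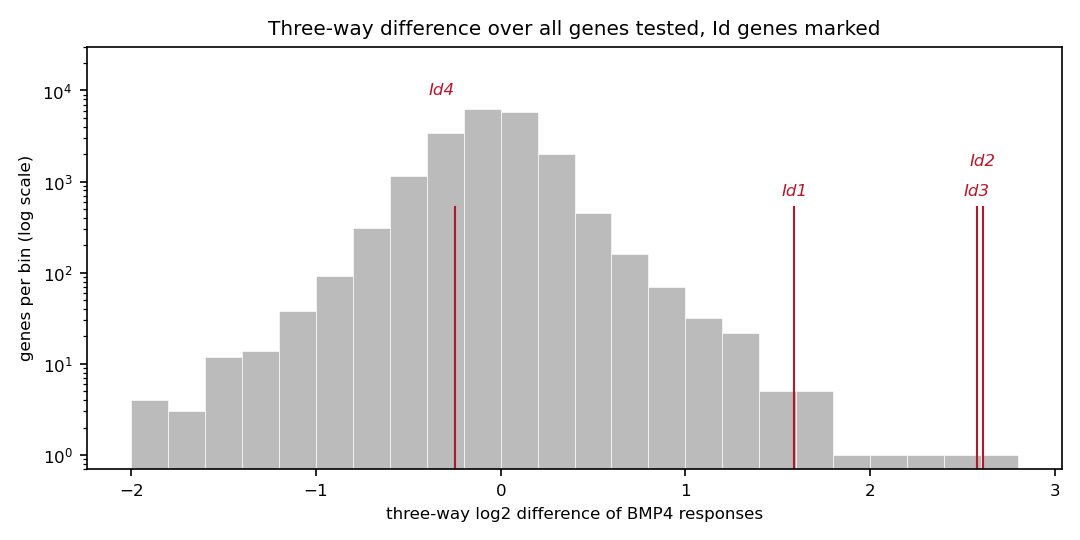
Distribution of the three-way log2 difference of BMP4 responses over the 19938 genes tested (grey, genes per bin on a log scale), with the Id genes as red lines. Id2 at 2.61 and Id3 at 2.58 are the highest values, Id1 at 1.59 lies in the upper tail, and Id4 at -0.25 in the bulk.

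The muscle bHLH factors, whose activity Id proteins restrain, followed their own patterns. Myod1, a master regulator of the muscle fate, read 10.86 to 10.94 in BMP4-treated MuSK-null myoblasts, against 11.43 to 11.54 in untreated ones (log2 change -0.59, SE 0.05, limma adjusted p = 2.62e-08). In myotubes of the same line it read 12.72 to 12.86 with BMP4 and 12.53 to 12.6 without. Myog, the factor that drives terminal differentiation, fell with BMP4 in MuSK-null myoblasts (-0.67, SE 0.07, adjusted p = 1.11e-07) and in wild-type myoblasts (-0.44, SE 0.07, adjusted p = 3.39e-05). In myotubes Myog stayed between 12.25 and 12.43 on all 12 arrays. Myf5, an early factor of the myoblast, rose with BMP4 in MuSK-null myotubes (0.71, SE 0.08), wild-type myotubes (0.68, SE 0.08) and wild-type myoblasts (0.97, SE 0.08). In MuSK-null myoblasts Myf5 read 12.14 to 12.39 with BMP4 and 12.11 to 12.35 without, and there the genotype difference of responses was -0.94 (SE 0.11, adjusted p = 1.91e-05). The three-way difference was 0.97 (SE 0.16, adjusted p = 0.00104) for Myf5 and 0.53 (SE 0.11, adjusted p = 0.00628) for Myod1, of the same sign as for Id1, Id2 and Id3.

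In untreated MuSK-null myoblasts, where Id1, Id2 and Id3 were high, Myog was lower than in wild type by 1.99 log2 units (difference -1.99, SE 0.07, limma adjusted p = 7.72e-17) and Myod1 by 1.24 (-1.24, SE 0.05), while Myf5 was higher by 1.83 (SE 0.08). In untreated MuSK-null myotubes, where Id2 and Id3 were low, Myf6, a factor of mature muscle, was higher than in wild type by 1.04 (SE 0.13, adjusted p = 1.02e-06) and Myf5 by 1.44 (SE 0.08), while Myod1 was lower (-0.66, SE 0.05). From myoblasts to myotubes Myog increased by 2.43 (SE 0.07) in untreated MuSK-null and by 0.41 (SE 0.07) in untreated wild-type cells, and the difference between these was 2.03 (SE 0.09, adjusted p = 9.08e-14). Myf6 likewise increased by 4.07 (SE 0.13) and 2.72 (SE 0.13). Whether Id levels had a part in any of these differences was not tested.

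The E proteins, partners that Id proteins bind, moved less. Of the 3 E protein genes, 2 were called lower with BMP4 in MuSK-null myoblasts and 1 in wild-type myoblasts. In these contrasts 4.52% and 5.76% of all genes were called lower. In myotubes 0 of the 3 were called lower. None was called higher in any kind of cell, which is near the share of 3.89% to 5.36% over all genes. The medians of the 3 genes ran from -0.34 to -0.02, against -0.01 to 0.02 over all genes. Tcf4 fell with BMP4 in MuSK-null myoblasts (-0.39, SE 0.06, limma adjusted p = 4.85e-05) and in wild-type myoblasts (-0.28, SE 0.06, adjusted p = 0.00162). Tcf3, which encodes E12 and E47, was lower in untreated myotubes than in untreated myoblasts in the MuSK-null line (-0.84, SE 0.1) and in wild type (-1.16, SE 0.1). Tcf3 was higher in untreated MuSK-null than wild-type myotubes by 0.51 (SE 0.1, adjusted p = 0.000318).

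**Figure D5:**
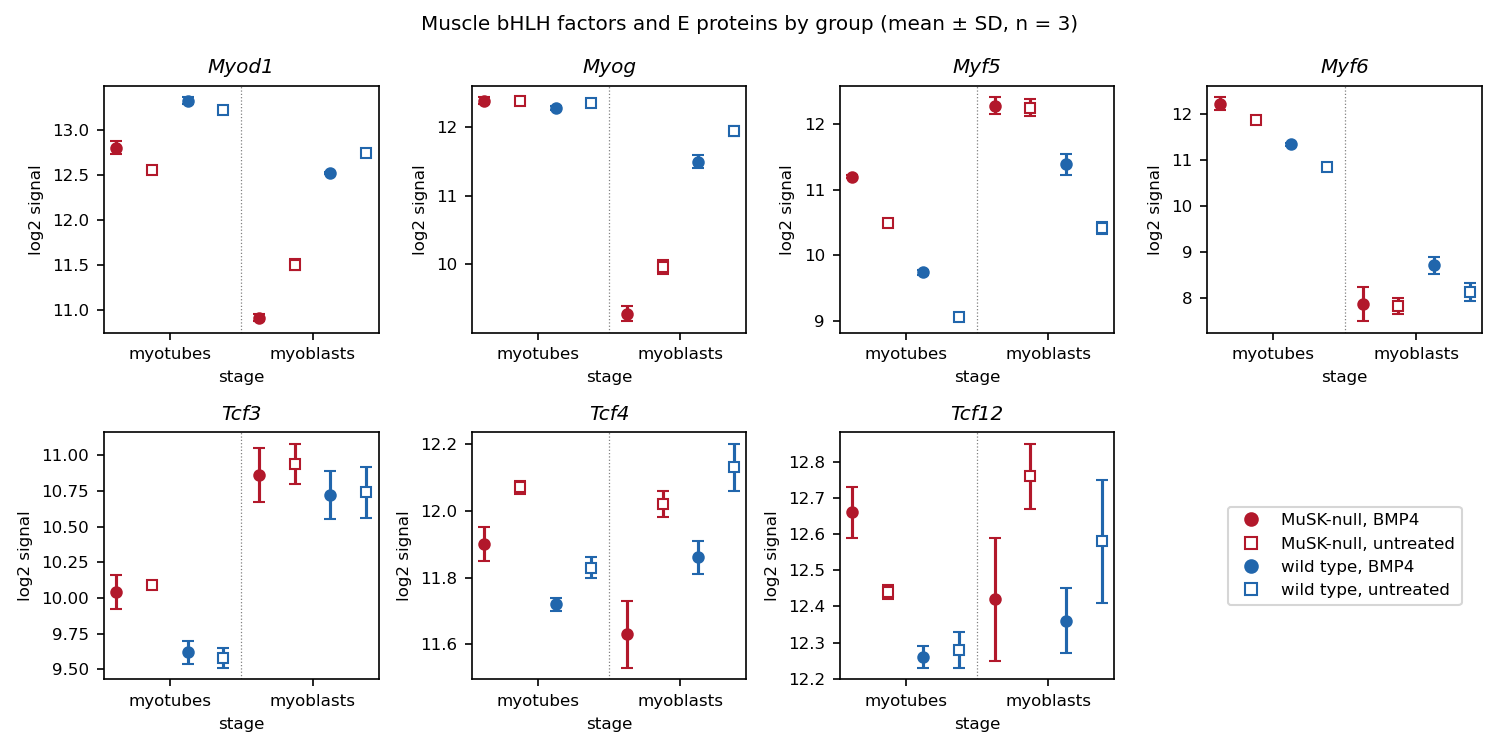
Log2 signal (mean ± SD, n = 3) of the muscle bHLH genes Myod1, Myog, Myf5 and Myf6 and of the E protein genes Tcf3, Tcf4 and Tcf12 in the 8 groups (filled circles, BMP4; open squares, untreated; red, MuSK-null; blue, wild type), myotubes left of myoblasts; each panel has its own scale. Myog is lowest in MuSK-null myoblasts, and Tcf3 is lower in all myotube groups than in myoblasts.

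Among BMP ligands, the endogenous Bmp4 gene was higher in the MuSK-null line in every state. Its signal was 11.46 to 11.53 in untreated MuSK-null myotubes, against 9.62 to 9.81 in wild type (log2 difference 1.78, SE 0.11, limma adjusted p = 8.99e-12). In untreated myoblasts it was 12.23 to 12.49 in MuSK-null cells, against 10.58 to 10.89 in wild type (1.64, SE 0.11, adjusted p = 4.18e-11). Any part of endogenous Bmp4 in the Id differences between the lines was not tested. Bmp2, another ligand, was lower in untreated MuSK-null myotubes (-3.1, SE 0.17) and myoblasts (-1.44, SE 0.17). In untreated myotubes the ligand Gdf6 (-2.38, SE 0.07) and the secreted antagonist Grem1 (-2.97, SE 0.07) were also lower in the null line. There, 7 of 13 measured ligand and antagonist genes were called lower and 1 higher (median -0.35, against 0.04 over all genes). Of all genes, 18% were called lower and 19.4% higher in that contrast. The Bmp4 signal was lower in BMP4-treated than in untreated wild-type myoblasts (-1.02, SE 0.11, limma adjusted p = 4.64e-07) and MuSK-null myotubes (-0.46, SE 0.11, adjusted p = 0.00709). In MuSK-null myoblasts Bmp4 read 11.74 to 12.11 with BMP4 and 12.23 to 12.49 without. In wild-type myotubes it read 9.38 to 9.58 with BMP4 and 9.62 to 9.81 without. Of 11 genes for receptors and coreceptors, 2 to 3 were called higher and 2 to 4 lower with BMP4 in each kind of cell, against 3.89% to 5.36% of all genes called higher and 4.37% to 5.9% called lower.

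Other targets of the same Smads did not all share the small response of Id1, Id2 and Id3 in MuSK-null myoblasts. Smad6, which encodes an inhibitory Smad, rose with BMP4 by 1.99 in MuSK-null myotubes, 1.78 in wild-type myotubes, 1.99 in MuSK-null myoblasts and 2.29 in wild-type myoblasts (SE 0.08 each). Smad9, a receptor-regulated Smad, rose by 1.34, 1.32, 1.7 and 1.54 in the same order (SE 0.08 each). In MuSK-null myoblasts, therefore, Smad6 and Smad9 were called higher by 1.99 and 1.7 log2 units, beside 0.71 to 0.99 for Id1, Id2 and Id3. Values of different probe sets stand side by side here without a test between them. Over the 8 group means, Smad6 and Smad9 were still among the 5 genes nearest Id3 in pattern. Smad6 and Smad9 were also higher in untreated MuSK-null than wild-type myoblasts, by 1.03 (SE 0.08) and 0.78 (SE 0.08). Of 8 Smad and Smad ligase genes, 4 were called higher with BMP4 in each of the 4 kinds of cells, and 1 was called lower in MuSK-null myotubes. Over all genes, 3.89% to 5.36% were called higher with BMP4 and 4.37% to 5.9% lower. Of 11 other early BMP targets, 9 were called higher in MuSK-null myotubes, 7 in wild-type myotubes, 9 in MuSK-null myoblasts and 9 in wild-type myoblasts, with medians of 0.45, 0.97, 0.83 and 1.19. The shares of all genes called higher were 5.36%, 4.4%, 3.89% and 5.21% in the same order. For the genotype difference of responses in myoblasts, 7 of these 11 were called lower and 0 higher (median -0.57, against 0.01 over all genes), as were 3 of the 4 Id genes. There, 1.22% of all genes were called lower and 1.17% higher. In myotubes 2 of the 11 were called lower and 0 higher (median 0.02), with 1.71% of all genes called lower and 1.5% higher. Hey1, a bHLH repressor and target of Notch and BMP signals, rose by 1.25 in MuSK-null myotubes, 1.41 in wild-type myotubes, 1.96 in MuSK-null myoblasts and 1.26 in wild-type myoblasts (SE 0.13 each).

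Among cell cycle genes linked to Id proteins, Cdkn2a and Cdkn2b, which encode inhibitors of cyclin-dependent kinases (Cdkn2a is a known target of repression by Id1), were lower in untreated MuSK-null myotubes (-2.68, SE 0.13, and -3.45, SE 0.09) and in untreated MuSK-null myoblasts (-3.43, SE 0.13, and -2.88, SE 0.09). Both genes were lower in the null line at both stages, and any part of the Id genes in this was not tested. Ccnd1, the cyclin D1 gene, was lower in untreated MuSK-null myotubes (-2.22, SE 0.06, limma adjusted p = 6.61e-18). Of the 9 genes measured in this list, 3 were called higher and 4 lower in untreated MuSK-null myotubes, where 19.4% of all genes were called higher and 18% lower. In untreated MuSK-null myoblasts 2 were called higher and 6 lower, where 15.3% of all genes were called higher and 16% lower. With BMP4, 0 or 1 rose and 1 to 3 fell in each kind of cell, where 3.89% to 5.36% of all genes were called higher and 4.37% to 5.9% lower. Cdkn1c, which encodes p57, fell in MuSK-null (-0.73, SE 0.1) and wild-type myoblasts (-1.51, SE 0.1).

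Likeness of pattern was measured as the root mean square difference between the 8 group means after each gene's own mean was subtracted. Over the 8 groups, Id3 was the closest gene to Id1 and Id1 the closest to Id3, at 0.37 log2 units. The median difference to all genes was 1.11 for Id1 and 1.19 for Id3. Next to Id1 came Smad7 (0.37), an inhibitory Smad gene, Smoc2 (0.38), which encodes a secreted matrix protein, Serpinb8 (0.41), a serpin gene, and Ptgs2 (0.43), the inducible cyclooxygenase gene. Next to Id3 came Smad6 (0.41), the bHLH gene Atoh8 (0.42), Smad7 (0.45) and Smad9 (0.52). Id2 had no such close neighbour. Its nearest genes were the sialyltransferase gene St3gal1 (0.51), Tiam2 (0.55), Serpinb8 (0.55), Rasl11a (0.57) and Gse1 (0.58), against a median of 1.05 over all genes. Id3 ranked 16 and Id1 ranked 22 in likeness to Id2. The closest genes to Id4 were Erf (0.11), Elmo3 (0.11), the endothelin gene Edn1 (0.14), Chst2 (0.15) and the co-chaperone gene Bag3 (0.15). The group means of Id4 had an SD of 0.34, and its median difference to all genes was 0.35. The choice of these genes used the same 8 group means, so their values are a description without a test.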

How the data were processed

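RNA of 24 samples in 8 groups of 3 was measured on Affymetrix arrays. The authors deposited 1 log2 value per probe set and array, and the log2 scale was read from the values, 2.5 to 15.03, with array medians of 7.38 to 7.5. Affymetrix Expression Console and Partek stand in the submitters' processing notes without version or role. The sources used here do not give the background correction or the normalization. For arrays, the number of samples limits the precision.

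Of 35556 rows, 21789 have 1 gene in the platform annotation, 1621 several and 12146 none. Gene IDs of 21698 matched RefSeq on GRCm38.p6 and 0 symbols changed. The row with the highest mean over all arrays was kept for the 999 genes with several, leaving 19938. With limma 3.58.1 (R 4.3.3), all 24 arrays were fitted together, each group having its own mean (16 residual degrees of freedom). The 18 contrasts were adjusted by Benjamini-Hochberg over all genes, and genes were called at an adjusted p under 0.05. Changes are given with standard errors (SE) or 95% intervals.

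The Id genes, 8 gene lists (69 of 72 genes measured) and 32 markers were chosen with earlier results of these data known. Besides the Id genes, Musk and Bmp4, the text may name E protein and muscle bHLH genes, up to 3 called members per list, direction and contrast, and the 5 genes nearest each Id gene in pattern. Same-numbered arrays deviated together (every r at least 0.12) only among BMP4-treated MuSK-null, untreated MuSK-null and untreated wild-type myoblasts. On simulated arrays with 200 changed genes among 19938, the test recovered 28.5%, 88% and 100% of changes of 0.3, 0.6 and 1 log2 units for the wild-type myoblast response. For the genotype difference of myotube responses the shares were 0%, 60.5% and 96%. False calls made up at most 6.54% and 5.42% of the calls in these 2 contrasts. The simulated noise was independent between genes and the changes were rises in a single group. The deposited arrays differ in both, so these shares need not hold for them. Alternatives were other scalings, other limma settings, and blocks for replicate number and for the 4 co-deviating arrays. Further ones were each row tested by itself, the compared groups alone, dim genes left out, and each array left out. Id4 was itself among the dim genes left out, so that fit holds no Id4 result.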

Additional observations from a re-analysis of the deposited data

Results flagged for a closer look

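The results here are tests of whether an effect differed between lines or stages, each past an adjusted p of 0.05 by limma. The BMP4 response in myoblasts was smaller in MuSK-null than in wild-type cells for Id1 (-1.45 log2 units), Id2 (-0.87) and Id3 (-1.6). In myotubes it was larger in MuSK-null cells for Id2 (1.75) and Id3 (0.97).

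Between stages, the response of MuSK-null cells was larger in myotubes than in myoblasts for Id1 (1.2), Id2 (1.92) and Id3 (2.12) and smaller for Id4 (-0.52). In wild-type cells it was smaller in myotubes for Id1 (-0.39), Id2 (-0.7) and Id3 (-0.46). The change of untreated cells from myoblasts to myotubes differed between MuSK-null and wild type for Id1 (-1.95), Id2 (-3.63) and Id3 (-2.19). The three-way difference of BMP4 responses was 1.59 for Id1, 2.61 for Id2 and 2.58 for Id3. No cause was tested for any of these.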

How the results depend on the processing

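Of 72 results for the Id genes (4 genes in 18 contrasts), 60 kept their direction and their side of the threshold under every alternative and with every single array left out. Every BMP4 response called in the report is among these 60, as are the genotype difference of each of Id1, Id2 and Id3 in untreated myoblasts and the three-way differences of all 4 genes. The fit with replicate number as a replicate block gave 0.99, 0.71, 0.74 and 0.6 for the BMP4 response of Id1, Id2, Id3 and Id4 in MuSK-null myoblasts, where numbers paired the arrays, and changed no call in the 2 contrasts so paired. The number of arrays limits the precision, and no scaling moved the median of all genes by over 0.1. The cause of the changes below was not tested.

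The genotype difference of Id4 in untreated myotubes was past the threshold after quantile normalization or median centring (-0.27 each), and, at -0.24 each, with the replicate block (adjusted p = 0.0469), with the 4 co-deviating arrays as a block, without them, and with the compared groups alone. The stage difference of Id3 in untreated wild-type cells was not called after quantile normalization (-0.16), median centring (-0.2), with every row tested by itself (-0.23), with the replicate block (-0.23, adjusted p = 0.0536), the 4 arrays as a block (-0.2), without them (-0.19) or with the compared groups alone (-0.23), and ran from -0.3 to -0.11 with single arrays left out. In BMP4-treated MuSK-null cells the Id3 stage difference was -0.25 without the 4 arrays and -0.37 to -0.25 with single arrays left out. The stage difference of responses in wild-type cells lost its call for Id1 after centring (-0.39), with every row by itself (-0.39) and without the 4 arrays (-0.41), and ran from -0.42 to -0.34 with single arrays left out. For Id3 it lost its call after centring, with every row by itself, with the replicate block (adjusted p = 0.0636), without the 4 arrays and with the compared groups alone (-0.46 each), and ran from -0.59 to -0.39 with single arrays left out. The stage difference of responses of Id4 in MuSK-null cells lost its call after quantile normalization (-0.47), centring (-0.48), with every row by itself (-0.52), without the 4 arrays (-0.45) and with the compared groups alone (-0.52), and ran from -0.64 to -0.41 with single arrays left out.

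Changes of sign met only values that were not called. These were the genotype difference of Id4 in untreated myoblasts without the 4 arrays (0.01; -0.1 to 0.03 with single arrays left out), that of Id1 in untreated myotubes after centring (-0.02; -0.03 to 0.09), the stage difference of Id4 in untreated MuSK-null cells with the 4 arrays as a block (0.03), and the BMP4 response of Id4 in MuSK-null myotubes (-0.03 to 0.2 with single arrays left out). With single arrays left out, the genotype difference of Id1 in BMP4-treated myotubes ran from 0.1 to 0.22, and the genotype difference of responses of Id4 in myotubes from -0.51 to -0.28. With the 4 arrays as a block, 745 genes were called for the genotype difference of responses in myoblasts and 1011 in myotubes, 1028 for the stage difference of responses in wild-type cells and 783 for the three-way difference, against 477, 640, 682 and 498 in the fit reported. With the compared groups alone, 1115 genes were called for the BMP4 response in MuSK-null myoblasts, against 1678.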
